A study of Mus musculus with 20 samples.

Results

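The genes described here are 10 markers of pericytes, Rgs5, Pdgfrb, Higd1b, Vtn, Kcnj8, Abcc9, Notch3, Anpep, Kcne4 and Atp13a5, out of the 45705 genes in the deposited table. They were taken by name, with earlier results of these data known, and each name occurred once in the table. The study sorted cells from the periventricular tissue of Swiss Webster mouse pups at postnatal day 5 by 4 surface antigens, CD133, LeX (also called CD15), CD140a and NG2, and sequenced amplified polyA RNA from 5 populations in 4 independent experiments, which are the batches here. Pups of each litter were pooled, males with females, so a library is a pool of animals. NSC (neural stem cells) were CD133+ LeX+ and lacked NG2 and CD140a. All 4 progenitor populations were NG2+: BNAP/GRP1 and GRP2/MP3 lacked CD140a and CD133 and differed in LeX (present and absent, respectively), while GRP3 and PFMP carried CD140a and differed in LeX (absent and present). No animal was treated and no transgene was carried. The question addressed is how the transcripts of mural cells, which also carry NG2, were spread over these 5 gates, the GRP2/MP3 gate above all.

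Pericytes are contractile cells embedded in the basement membrane of capillaries, where they wrap the endothelium. They are recruited during development by PDGF-B from endothelial cells, which acts on the PDGF receptor beta on the pericyte, and Notch3 signalling maintains mural cells on small arteries and capillaries. In brain they take part in the blood-brain barrier, and ATP-sensitive potassium channels set their membrane potential. Smooth muscle cells of arteries and arterioles are the other mural cells and share several of these genes, but carry more of the contractile proteins.

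The 10 genes are protein-coding, and their positions are given here on GRCm38, the build the authors aligned to, from GENCODE vM21. Rgs5 is at chr1:169655501-169695813 and Kcne4 at chr1:78816758-78820028, both on the plus strand. Kcnj8 (chr6:142564837-142571614) and Abcc9 (chr6:142587862-142702315) are neighbours on the minus strand, separated by 16247 bases with no protein-coding gene between them. Anpep is at chr7:79821803-79861059 on the minus strand, Vtn at chr11:78499091-78502324 and Higd1b at chr11:102835849-102838040 on the plus strand, and Atp13a5 at chr16:29231851-29378732 and Notch3 at chr17:32120820-32166852 on the minus strand. Pdgfrb is on a chromosome with none of the others. Exons of Abcc9 share 158 bases with the antisense gene 5330439B14Rik and those of Notch3 share 488 bases with the antisense gene Gm17276. The strand setting of the counting is not given in the sources used here, so reads from those stretches cannot be assigned to one strand.

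RefSeq start sites (GRCm38.p6) were matched for 8 of the 10 genes. In 3 of these (Vtn, Abcc9 and Kcne4) the 250 bases before the start touched an annotated exon, and only the 5 others are shown. They are Rgs5, Kcnj8 and Atp13a5, which were highest in GRP2/MP3 in batches 1, 2 and 4, and Notch3 and Anpep, which were not. Capitals mark matches on either strand to 6 motifs: TATAAA (the TATA box), GGGCGG (the GC box bound by SP1), TGGGAA (the core bound by RBPJ, the DNA-binding partner of Notch), TGTTTA (the forkhead core), CAGCTG (an E box) and the CArG box bound by serum response factor. The sequences run 5′ to 3′ along the strand of each gene and end at the base before its RefSeq start. They lie at chr1:169655251-169655500 for Rgs5, chr6:142571615-142571864 for Kcnj8, chr16:29378733-29378982 for Atp13a5, chr17:32166891-32167140 for Notch3 and chr7:79848211-79848460 for Anpep. The Anpep window lies within the GENCODE span given above, before an internal start and not upstream of the whole gene.
Rgs5: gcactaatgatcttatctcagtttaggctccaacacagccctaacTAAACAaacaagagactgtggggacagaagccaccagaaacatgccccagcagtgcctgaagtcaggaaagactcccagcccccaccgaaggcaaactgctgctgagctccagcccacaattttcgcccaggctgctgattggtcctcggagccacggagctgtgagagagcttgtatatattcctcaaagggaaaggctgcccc
Kcnj8: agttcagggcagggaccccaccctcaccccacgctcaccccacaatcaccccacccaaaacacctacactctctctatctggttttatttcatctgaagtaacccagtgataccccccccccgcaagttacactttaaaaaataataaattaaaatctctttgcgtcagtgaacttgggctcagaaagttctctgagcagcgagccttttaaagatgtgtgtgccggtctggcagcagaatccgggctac
Atp13a5: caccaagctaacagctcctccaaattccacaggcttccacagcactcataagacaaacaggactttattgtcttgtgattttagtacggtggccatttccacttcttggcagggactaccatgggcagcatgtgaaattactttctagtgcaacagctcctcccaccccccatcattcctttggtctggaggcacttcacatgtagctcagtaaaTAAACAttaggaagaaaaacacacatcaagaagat
Notch3: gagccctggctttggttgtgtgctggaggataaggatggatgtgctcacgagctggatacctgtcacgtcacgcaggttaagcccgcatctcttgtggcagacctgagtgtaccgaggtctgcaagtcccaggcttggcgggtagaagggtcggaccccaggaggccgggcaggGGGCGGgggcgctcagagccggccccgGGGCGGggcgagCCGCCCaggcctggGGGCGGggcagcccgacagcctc
Anpep: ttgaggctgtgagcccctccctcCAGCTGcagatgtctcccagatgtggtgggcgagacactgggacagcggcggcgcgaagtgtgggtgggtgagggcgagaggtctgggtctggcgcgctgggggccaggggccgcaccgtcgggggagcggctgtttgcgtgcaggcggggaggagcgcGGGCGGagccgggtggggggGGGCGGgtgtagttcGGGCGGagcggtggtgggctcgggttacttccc
The windows of Rgs5 and Atp13a5 each held 1 match, to the forkhead core, which 12.03% of all 32851 promoter windows of this length hold. The Kcnj8 window held none of the 6 motifs. The Notch3 window held 4 GC boxes, and the Anpep window held 3 GC boxes and 1 E box, against 32.7% of all windows with a GC box and 13% with this E box. None of these 5 windows held the TATA box (12.4% of all windows), the RBPJ core (21.6%) or the CArG box (1.47%), which says only that these letters are not in this stretch. The windows of Notch3 and Anpep were rich in CG dinucleotides, with 17 and 23, where the median over all windows was 6 and the upper quartile 16. Rgs5 had 4, Kcnj8 6 and Atp13a5 1. The 3 windows not shown belong to genes that were also highest in GRP2/MP3 in batches 1, 2 and 4. That of Vtn held the TATA box and the RBPJ core, and that of Kcne4 this E box. The Abcc9 window held the GC box, the RBPJ core and this E box. Their CG dinucleotides numbered 9 (Vtn), 12 (Abcc9) and 7 (Kcne4).

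The deposited values are RPKM (reads scaled to gene length and to the mapped reads of the library). The gene lengths behind them are not given and the RNA was amplified. Orders, shares and ratios between different genes below are therefore those of the deposited values, and how well they follow transcript numbers was not tested. The RPKM of a library summed to between 955067 and 2407640, and between 20116 and 39689 genes were above 0. Read totals were not used here, but depth relative to BNAP/GRP1 of batch 1, read from steps in low values, ran from 0.0394 in BNAP/GRP1 of batch 4 to 1.41 in BNAP/GRP1 of batch 3. Among the libraries, 2 sets stood apart. All 5 libraries of batch 3 held erythroid genes at summed levels of 228440 to 252653 RPKM and lung and airway genes at 1493 to 1684 RPKM, while outside batch 3 these sums reached 26514 and 60.4 RPKM. BNAP/GRP1 of batch 4, the shallowest by these steps, had the highest median over all genes, 8.30 RPKM, and 38191 genes above 0. BNAP/GRP1 of batch 3, the deepest by these steps, had 20597. The steps take low values as single reads, which was not tested, so the low depth is an estimate. Values of a few RPKM in BNAP/GRP1 of batch 4 lie below its median. Values that rest on these libraries are given with and without batch 3 below. All libraries are bulk pools, in which fewer cells of a type and less RNA per cell cannot be told apart.

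In batches 1, 2 and 4 the GRP2/MP3 library held most of these transcripts. It was the highest of the 5 libraries for all 10 genes in batch 1 (a position that 21.0% of the 27614 genes tested held), for 9 in batch 2 (14.7% of genes) and for 8 in batch 4 (5.76% of genes). In batch 3 it was the highest for 2 of the 10 (12.3% of genes), Vtn and Kcne4, at 0.205 and 0.102 RPKM. There were 8 genes for which it was highest in batches 1, 2 and 4 alike, Rgs5, Pdgfrb, Higd1b, Vtn, Kcnj8, Abcc9, Kcne4 and Atp13a5, while 0.413% of all genes tested did this. For 6 of them, Rgs5, Higd1b, Vtn, Kcnj8, Abcc9 and Atp13a5, the 3 GRP2/MP3 libraries lay above all 12 other libraries of these batches, which 18 genes in all did (0.0652%). Abcc9, Kcne4 and Atp13a5 were among the genes tested only through their GRP2/MP3 libraries, so their places in these counts are not support of their own. Summed over the members other than Anpep, the GRP2/MP3 libraries held 530, 475 and 7487 RPKM in batches 1, 2 and 4 and 1.05 RPKM in batch 3. The highest sum in any other library was 207 RPKM, in BNAP/GRP1 of batch 4.

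**Figure D1:**
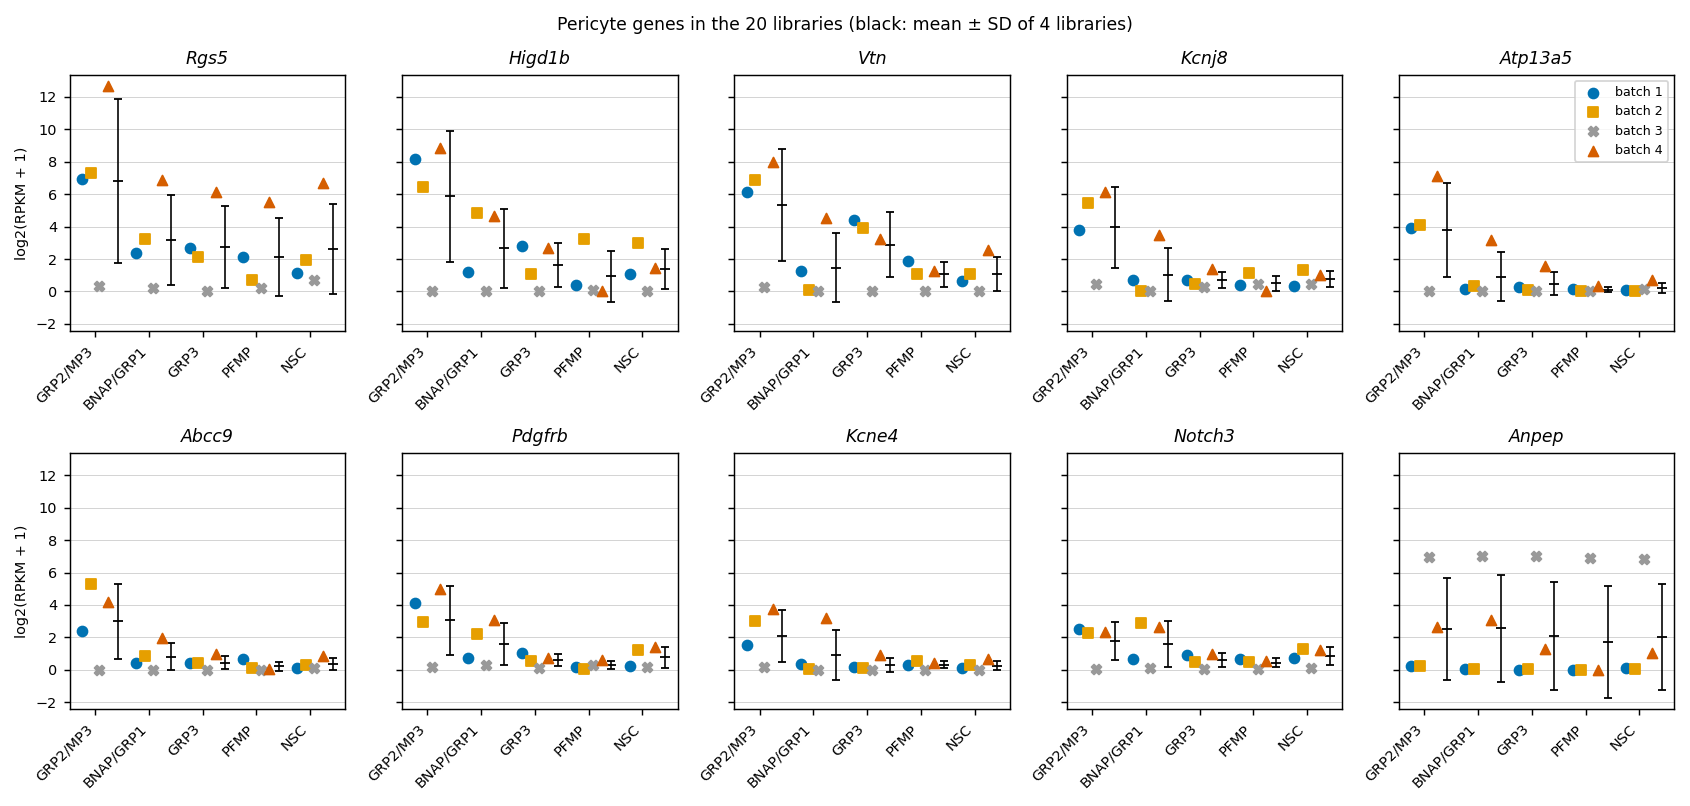
Level of each pericyte gene in each library, as log2(RPKM + 1), by population and with the batch as colour and marker. Black bars are the mean ± SD of the 4 libraries of a population. In batches 1, 2 and 4 the GRP2/MP3 points stand above the others for most genes, the batch 3 points lie near 0 except for Anpep, which batch 3 holds at 115 RPKM or more in all 5 populations.

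Among the signalling genes, Rgs5, a regulator of G-protein signalling used as a marker of brain pericytes, had the highest single level of any member. In GRP2/MP3 it was at 120.4, 155, 0.251 and 6493 RPKM in batches 1 to 4. In batch 4 it was the 17th most abundant gene of that library and made up 86.7% of the summed RPKM of the 10 members. BNAP/GRP1 held 4.15, 8.45, 0.173 and 119 RPKM, GRP3 5.38, 3.33, 0 and 68.0 RPKM, PFMP 3.395, 0.599, 0.168 and 44.8 RPKM, and NSC 1.23, 2.85, 0.617 and 102 RPKM. Rgs5 was thus above 40 RPKM in every batch 4 library, and the GRP2/MP3 library of batch 1 lay just above BNAP/GRP1 of batch 4. Within a batch, GRP2/MP3 exceeded the next highest population 22.4-fold, 18.4-fold and 54.7-fold in batches 1, 2 and 4.

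Pdgfrb, the receptor through which PDGF-B recruits pericytes, was at 16.1, 6.74, 0.104 and 30.8 RPKM in GRP2/MP3. The other 16 libraries ranged from 0.0415 to 7.31 RPKM with a median of 0.499, and the highest of them was BNAP/GRP1 of batch 4, which overlapped with GRP2/MP3 of batch 2. In batch 2 BNAP/GRP1 held 3.69 RPKM, so that GRP2/MP3 was 1.83-fold higher there, against 15.6-fold and 4.21-fold over the next highest population in batches 1 and 4. Notch3, the Notch receptor of mural cells, was the least variable member within GRP2/MP3, at 4.69, 3.87 and 4.02 RPKM in batches 1, 2 and 4 (highest over lowest 1.21) and at 0.0104 RPKM in batch 3. BNAP/GRP1 held more of it than GRP2/MP3 did in batch 2 (6.46 RPKM) and batch 4 (5.32 RPKM). The batch 4 value lay below the median over all genes of that BNAP/GRP1 library, 8.30 RPKM. That median was 0.977 RPKM in GRP2/MP3 of batch 4. Notch3 ranked 31760 among all genes in BNAP/GRP1 of batch 4 and 11668 in GRP2/MP3 of batch 4. By RPKM, Notch3 thus did not separate GRP2/MP3 from BNAP/GRP1, although by rank GRP2/MP3 was ahead in batch 4. In GRP3, PFMP and NSC it had means of 0.582 ± 0.450, 0.368 ± 0.235 and 0.887 ± 0.651 RPKM (SD, n = 4).

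Kcnj8 and Abcc9 encode the pore (Kir6.1) and the sulphonylurea receptor (SUR2) of the vascular ATP-sensitive potassium channel, and both were present in GRP2/MP3. Kcnj8 was at 12.8, 42.1, 0.382 and 68.9 RPKM and Abcc9 at 4.23, 38.9, 0 and 17.5 RPKM. The level of Kcnj8 over that of Abcc9 was 3.03, 1.08 and 3.94 in batches 1, 2 and 4. Outside GRP2/MP3 the median of 16 libraries was 0.385 RPKM for Kcnj8 and 0.277 RPKM for Abcc9, with highest values of 10.1 and 2.94 RPKM, both in BNAP/GRP1 of batch 4. Both genes therefore had their 3 highest libraries in GRP2/MP3. The paralogous pancreatic and neuronal subunits, Kcnj11 and Abcc8, were at most 0.703 and 1.16 RPKM in the GRP2/MP3 libraries.

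Kcne4, an accessory subunit that modulates voltage-gated potassium channels, was at 1.896, 6.93, 0.102 and 12.2 RPKM in GRP2/MP3. It passed 1 RPKM in 1 library outside that population, BNAP/GRP1 of batch 4, at 8.03 RPKM. That library lay above the GRP2/MP3 libraries of batches 1 and 2. Atp13a5, a P5-type transport ATPase used as a marker of brain pericytes, was at 13.9, 16.4, 0 and 139 RPKM in GRP2/MP3 and at a median of 0.104 RPKM in the 16 other libraries. Only 2 of those 16 passed 1 RPKM, BNAP/GRP1 of batch 4 at 8.10 RPKM and GRP3 of batch 4 at 1.91 RPKM. Atp13a5 had the largest within-batch ratios of the members in batches 1 and 2, 75.1-fold and 67.0-fold over the next highest population, and 17.2-fold in batch 4.

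Higd1b, a small membrane protein of the hypoxia-inducible domain family, was at 287, 87.3, 0 and 463 RPKM in GRP2/MP3. In BNAP/GRP1 it was at 1.30, 27.1, 0 and 24.01 RPKM, and the remaining 12 libraries held at most 8.52 RPKM. Its GRP2/MP3 libraries exceeded the next highest population 48.5-fold, 3.22-fold and 19.3-fold in batches 1, 2 and 4. Vtn, the secreted matrix protein vitronectin, was at 68.8, 118, 0.205 and 258 RPKM in GRP2/MP3. In GRP3, the next highest population in batches 1 and 2, it was at 20.6, 13.8, 0 and 8.56 RPKM, whereas PFMP reached 2.61 and NSC 4.77 RPKM. In batch 1 the GRP2/MP3 library exceeded GRP3 3.34-fold, the smallest of its margins.

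Anpep, the membrane aminopeptidase also called CD13, went its own way. In GRP2/MP3 it was at 0.190, 0.151, 123 and 5.29 RPKM, so that batch 3, where the 9 others were lowest, held the most. All 5 libraries of batch 3 held between 115 and 130.1 RPKM of it. Outside batch 3 the highest value was 7.38 RPKM, in BNAP/GRP1 of batch 4, and the median of the 12 libraries outside GRP2/MP3 was 0.0316 RPKM. In batches 1 and 2 Anpep was therefore near 0 in the same GRP2/MP3 libraries in which Rgs5 and Vtn stood above 60 RPKM. Its Pearson r with the mean of the 9 other standardized members was -0.31 over the 20 libraries, whereas those of the 9 others with their fellow members ran from 0.754 (Notch3) to 0.974 (Atp13a5). These r are descriptions, since the libraries share batches and depth.

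The order of the members within GRP2/MP3 changed between batches. Higd1b, Rgs5 and Vtn were the first 3 in each of batches 1, 2 and 4, but Higd1b led in batch 1 (54.1% of the summed RPKM of the 10 members) and Rgs5 in batch 2 (32.7%) and batch 4. Their means over the 3 libraries were 2256 ± 3669 RPKM for Rgs5, 279 ± 188 RPKM for Higd1b and 148 ± 98.2 RPKM for Vtn (SD, n = 3), so these neighbours in the order did not differ beyond their spread. Atp13a5 (56.6 ± 71.8 RPKM), Kcnj8 (41.3 ± 28.1), Abcc9 (20.2 ± 17.5) and Pdgfrb (17.9 ± 12.1) followed, again with spreads that overlap. Kcne4 (6.99 ± 5.13 RPKM), Notch3 (4.20 ± 0.438) and Anpep (1.88 ± 2.96) were the lowest.

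**Figure D2:**
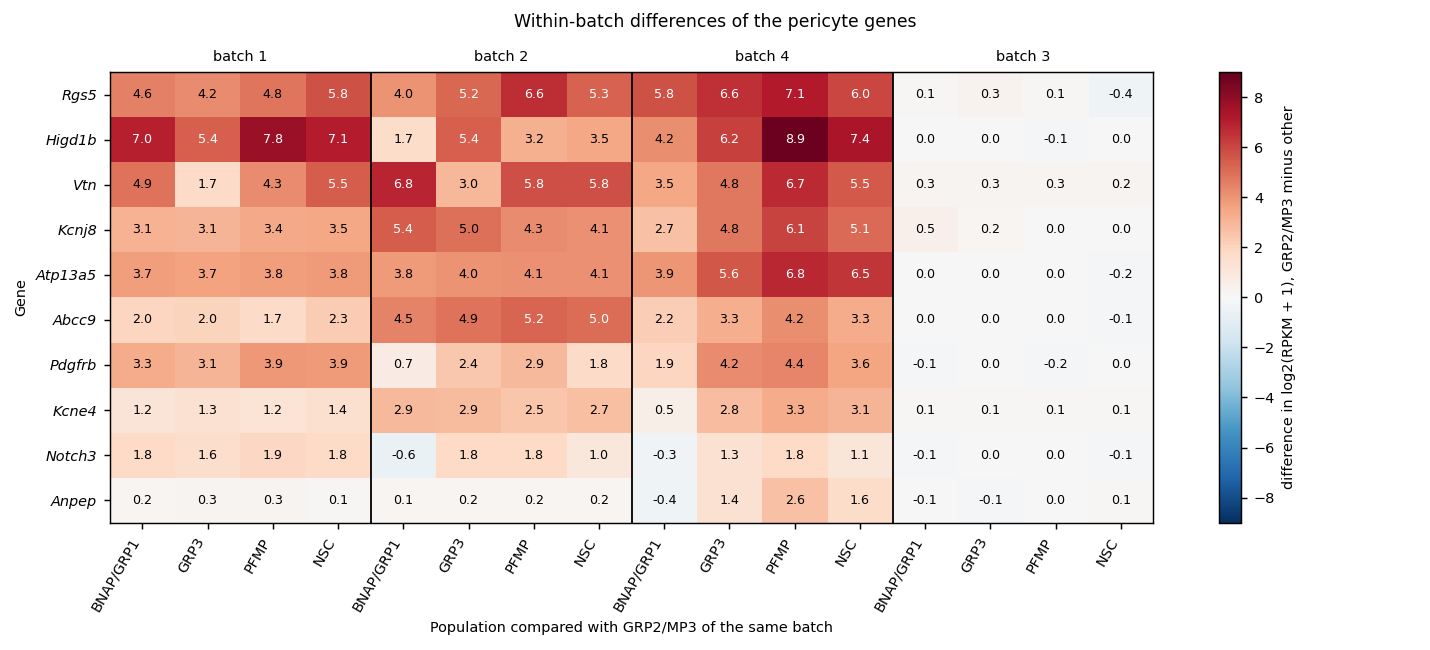
Difference in log2(RPKM + 1) between the GRP2/MP3 library and each other library of the same batch, with 1 row per gene and 1 column per comparison, batch 3 at the right. Red cells are higher in GRP2/MP3: in batches 1, 2 and 4 this holds for every cell of the 8 genes other than Notch3 and Anpep, from 0.54 (Kcne4) to 8.86 (Higd1b), while batch 3 runs from -0.37 to 0.47.

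For the tests, GRP2/MP3 was compared with each other population by limma on log2(RPKM + 1) over the 27614 genes that reached 1 RPKM in 4 or more libraries, with p-values adjusted over those genes by the Benjamini-Hochberg method. All 10 members passed that filter, but Abcc9 and Kcne4 (4 libraries) and Atp13a5 (5 libraries) passed only through their 3 GRP2/MP3 libraries, so their calls below are not support of their own. The 4 comparisons share the GRP2/MP3 libraries and are therefore not independent of each other. Without a batch term, as the study's methods name none, 0 of the 10 members were called in any of the 4 comparisons, and neither was any gene called higher in GRP2/MP3 (0% of genes). This is the outcome of limma on log2(RPKM + 1) and differs from the published one. The study used DESeq2 and reported genes higher in GRP2/MP3 than in NSC, with Higd1b among those of largest fold change. At an unadjusted p under 0.05 by limma, 7 members were higher than in NSC (0.873% of genes tested), 5 higher than in BNAP/GRP1 (0.145%), 6 higher than in GRP3 (0.923%) and 8 higher than in PFMP (1.36%). The median log2 fold change of the members was 2.90 against NSC, 2.52 against BNAP/GRP1, 2.49 against GRP3 and 3.11 against PFMP, beside medians over all genes tested of -0.08, -0.43, -0.15 and 0.09. The largest estimate against NSC was that of Higd1b, 4.49 ± 1.49 (SE), and the smallest that of Anpep, 0.51 ± 2.05. That of Rgs5, which was low in batch 3 and high in batch 4 in every population, was 4.18 ± 2.01.

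The batch numbers pair the libraries by experiment, and a replicate block for the batch changed the call in the comparison with NSC. With the block, 6 members were called higher in GRP2/MP3 than in NSC by limma: Rgs5 (adjusted p = 0.00644), Vtn (0.0106), Atp13a5 (0.0115), Higd1b (0.0272), Kcnj8 (0.0285) and Abcc9 (0.0312). They were among 48 genes called higher (0.174% of those tested). Pdgfrb (adjusted p = 0.0575) and Kcne4 (0.0796) missed the threshold, with log2 fold changes of 2.29 ± 0.63 and 1.83 ± 0.54 (SE), and Notch3 (0.545) and Anpep (1) did so by far. At an unadjusted p under 0.05, 8 members were higher than in NSC (3.00% of genes). Against BNAP/GRP1, GRP3 and PFMP the block gave 0 calls among the members and 0 genes called higher at all (0%), with 8, 9 and 9 members at an unadjusted p under 0.05 (0.529%, 2.75% and 3.90% of genes).

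Leaving batch 3 out of every population, with the block kept, changed the calls in all 4 comparisons. Over the 26663 genes then tested, 7 members were called higher than in NSC (0.585% of genes), Pdgfrb joining the 6 above at an adjusted p of 0.0191 by limma. Against PFMP the same 7 members were called (0.184% of genes), with adjusted p from 0.000763 for Rgs5 to 0.0417 for Abcc9. Against GRP3, 6 were called (0.349% of genes), all of these but Vtn, whose log2 fold change was 3.15 ± 0.84 (SE, adjusted p = 0.121). Against BNAP/GRP1, the population that shares the NG2+ CD140a- CD133- gate, Rgs5 was the one gene called in the whole table (0.00375% of genes), at 4.79 ± 0.62 (SE, adjusted p = 0.0235). Vtn, at 5.07 ± 0.84, had a larger estimate there with an adjusted p of 0.146. Notch3, Anpep and Kcne4 were called in none of the 4 comparisons with any of these 3 models. Without the block, leaving out the GRP2/MP3 library of batch 3 alone raised the members called against NSC from 0 to 6 (0.0579% of genes, 16 in all, were called higher), Pdgfrb, Higd1b, Vtn, Kcnj8, Abcc9 and Atp13a5. That fit kept the batch 3 libraries of NSC and the other populations, so the removal was unbalanced and by itself raised the GRP2/MP3 mean of these genes.

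**Figure D3:**
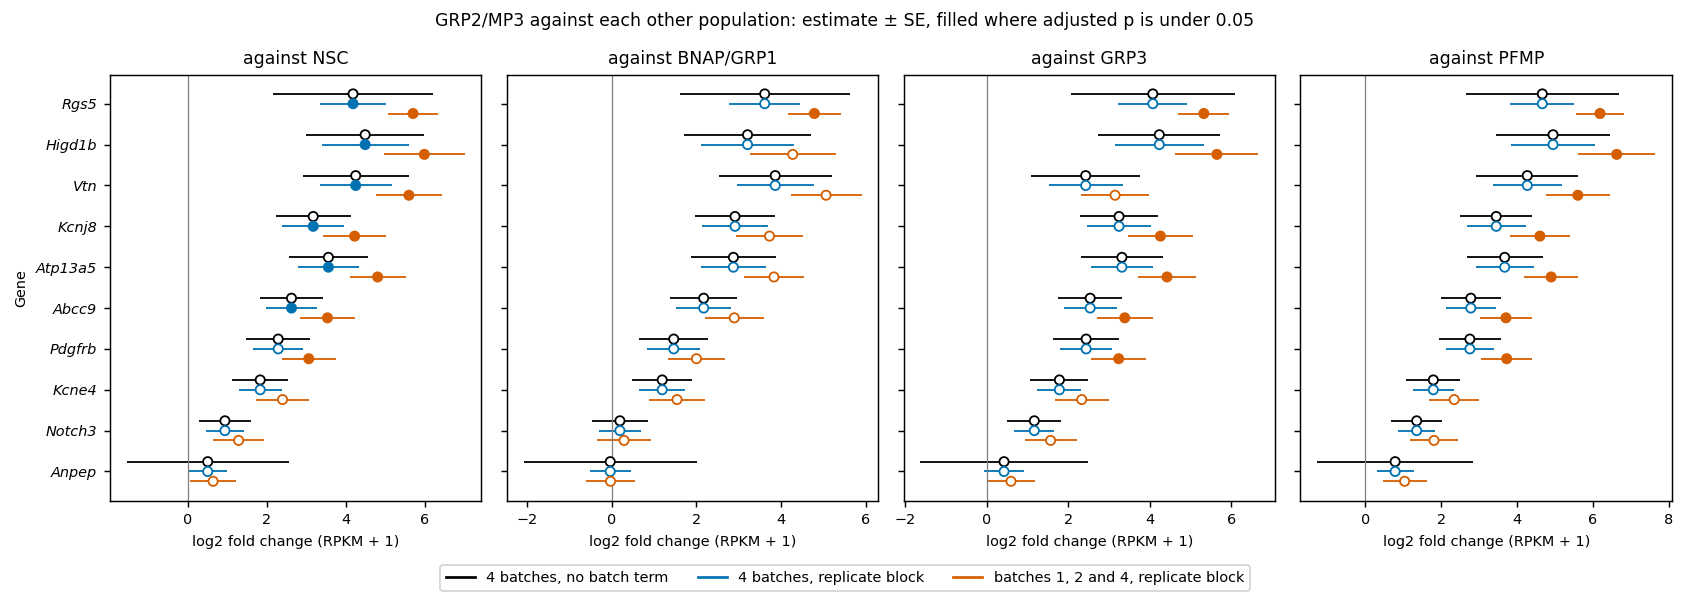
Log2 fold change of each pericyte gene in GRP2/MP3 against each other population, on the log2(RPKM + 1) scale, as estimate ± SE for the model without a batch term (black), with the replicate block (blue) and with the block and without batch 3 (orange). Filled points have an adjusted p under 0.05 by limma: none are black, 6 are blue, all in the comparison with NSC, and orange has 7, 1, 6 and 7 against NSC, BNAP/GRP1, GRP3 and PFMP.

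In the 3 models above, no difference of another population from NSC passed the test for these genes. Without a batch term, 0 of the 10 members were called against NSC in BNAP/GRP1, GRP3 or PFMP in either direction, where 0.760%, 1.05% and 1.14% of all genes were. In that model 0 members reached an unadjusted p under 0.05 (5.90%, 5.62% and 5.88% of genes). The largest of these estimates was that of Vtn in GRP3, 1.82 ± 1.34 (SE, adjusted p = 1 by limma). With the block and without batch 3 it was 2.44 ± 0.84 (SE, unadjusted p = 0.0100, adjusted p = 0.183 by limma). It was called only in batches 1 and 2 alone with the block, at 3.3 (adjusted p = 0.0416). BNAP/GRP1 of batch 4 was the one library outside GRP2/MP3 with all 10 members above 1 RPKM, between 2.94 RPKM (Abcc9) and 119 RPKM (Rgs5). Its median over all genes was 8.30 RPKM, so a level above 1 RPKM was common in that library and does not mark the members. Pdgfrb, Notch3, Abcc9, Anpep, Kcne4 and Atp13a5 lay below that median. The same library held the contractile gene Cnn1 at 9.10 RPKM, the oligodendrocyte progenitor gene Olig2 at 17.4 RPKM and the airway gene Scgb1a1 at 13.6 RPKM. The part of its estimated low depth or of its high median in these levels was not tested.

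The other mural cell genes, a list of 26 of which 24 were in the table and tested, moved in the same direction with fewer calls. Without a batch term 0 were called, with 4, 2, 7 and 11 higher at an unadjusted p under 0.05 against NSC, BNAP/GRP1, GRP3 and PFMP (0.873%, 0.145%, 0.923% and 1.36% of genes tested). With the block and without batch 3, Art3, an ADP-ribosyltransferase, was called higher than in GRP3 (log2 fold change 4.11) and than in PFMP (5.05). It was at 21.1, 67.1, 0 and 52.7 RPKM in GRP2/MP3, and NSC of batch 4 held 52.2 RPKM. Gjc1, the gap junction protein connexin 45, was at 14.6, 101.1, 0.183 and 128 RPKM, and Ndufa4l2, a mitochondrial protein, at 18.4, 9.18, 1.12 and 139.6 RPKM. In batch 1 Gjc1 was higher in NSC (15.55 RPKM), and in batch 2 Ndufa4l2 was (14.52 RPKM). There were 7 genes of this list that were highest in GRP2/MP3 in batches 1, 2 and 4, as 0.413% of all genes tested were. Among them were Foxs1, a forkhead factor of mural cells, and Mcam, the adhesion molecule CD146. Foxs1 passed the filter only through its GRP2/MP3 libraries, so its place is not support of its own. Cspg4 encodes the NG2 core protein by which the progenitors were gated, and is given for that reason. It was at 5.91, 9.64, 0.0431 and 7.89 RPKM in GRP2/MP3 and at 93.2, 80.9, 0.245 and 11.7 RPKM in GRP3.

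Smooth muscle contractile genes differed among themselves in GRP2/MP3. The 12 in the list summed to 146, 53.1, 12.9 and 208 RPKM there in batches 1 to 4, the highest sum of a batch in batches 1 and 4. In NSC they summed to 52.8, 134, 15.1 and 51.6 RPKM. Of the 12, 8 passed the filter and 0 were called without a batch term. By limma's unadjusted p under 0.05, 1 was higher than in GRP3 (0.923% of genes) and 4 were higher than in PFMP (1.36%). Their median log2 fold change against NSC was 0.28. Myh11, the smooth muscle myosin heavy chain, and Cnn1, calponin, reached 0.861 and 1.12 RPKM in the GRP2/MP3 libraries, while Tpm2 was at 9.16, 5.25, 2.41 and 7.71 RPKM. Myl9, a regulatory light chain also found in pericytes, was at 117, 22.1, 1.01 and 143 RPKM and was the one gene of the list called against GRP3 with the block and without batch 3 (log2 fold change 3.62, adjusted p = 0.0481 by limma). Acta2, smooth muscle actin, was at 9.33, 1.58, 4.84 and 22.6 RPKM in GRP2/MP3 and at 14.03 and 27.8 RPKM in NSC of batches 1 and 2, and Mylk, myosin light chain kinase, was at 4.17, 22.01, 0.0993 and 7.13 RPKM in GRP2/MP3.

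None of the PDGF and NOTCH3 pathway partners of the members was called higher in GRP2/MP3 in these models. Among 6 PDGF ligands and receptors, Pdgfa, a ligand of the alpha receptor, was lower in GRP2/MP3 than in NSC without a batch term (log2 fold change -2.33, adjusted p = 0.0262 by limma), at 11.1 to 18.0 RPKM against 33.5 to 127.5 RPKM. Pdgfra, which encodes the gated CD140a, was called lower than in GRP3 (-6.29) and PFMP (-5.56) with the block and without batch 3. Pdgfb, the endothelial ligand of the beta receptor, was at 3.42, 7.10, 4.49 and 3.73 RPKM in GRP2/MP3. Among 13 partners and targets of NOTCH3, 0 were called without a batch term (1 was lower than in NSC and 1 lower than in GRP3 at an unadjusted p under 0.05), and with the block Hey1, a Notch target that NSC held at 101.7, 66.9, 8.76 and 34.3 RPKM, was called lower (-3.15, adjusted p = 0.000904). Hes1, another target, was at 29.96, 72.7, 10.1 and 141 RPKM in GRP2/MP3, Rbpj, the DNA-binding partner, at 13.02, 63.8, 18.99 and 4.97 RPKM, and Nrarp, a feedback inhibitor, at 2.97, 24.1, 1.15 and 15.7 RPKM. Of 7 KATP channel and KCNE partners 6 were in the table and 1, Kcne3, passed the filter, with 0 called and at most 4.35 RPKM in GRP2/MP3. Kcnq1, a channel that KCNE subunits bind, reached 0.776 RPKM there. Of 6 vitronectin receptors and ligands 0 were called without a batch term (by unadjusted p under 0.05, 1 was higher than in PFMP, as 1.36% of genes were). With the block and without batch 3 Plaur, the urokinase receptor, was called higher than in GRP3 (3.94). The integrin chains Itgb1 and Itgav, which are broadly expressed, were at 51.8 to 127 RPKM and 31.2 to 89.0 RPKM in GRP2/MP3.

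Markers of other cell types also moved with the GRP2/MP3 gate. All 11 microglia genes were tested and 0 were called without a batch term, but 10 were higher than in NSC at an unadjusted p under 0.05 (0.873% of genes). With the block 4 were called, Cx3cr1, Csf1r, Aif1 and Gpr34 (0.174% of genes called higher). All 11 were called with the block and without batch 3 (0.585%). Their summed level in GRP2/MP3 was 895 to 8473 RPKM over the 4 libraries, against 24.5 to 40.1 RPKM in GRP3 of batches 1, 2 and 4. C1qc, C1qb and C1qa, subunits of complement C1q, led the list, at up to 1953, 1930 and 1242 RPKM. BNAP/GRP1 held microglia sums of 8801, 2645 and 157 RPKM in batches 1, 2 and 4, with pericyte gene sums of 9.53, 46.9 and 214 RPKM. In batches 1 and 2 it was thus low in pericyte genes at high microglia sums, while in batch 4 it was below GRP2/MP3 in both. Erythroid genes were also higher in GRP2/MP3 in batches 1, 2 and 4, at 26514, 4569 and 2754 RPKM in sum, with the globin genes Hbb-bs, Hba-a2 and Hba-a1 having the highest means over the 4 libraries. Against NSC, 0, 1 (Hbb-bt) and 4 (Hbb-bt, Hbb-bs, Hba-a1 and Hba-a2) of 5 were called in the 3 models, where 0%, 0.174% and 0.585% of genes were called higher. The part of these cells in the pericyte gene results was not tested.

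Endothelial genes were shared with NSC. The 19 genes summed to 282, 276, 64.9 and 180 RPKM in GRP2/MP3 and to 555, 271, 66.9 and 108 RPKM in NSC, with 0 called against NSC in all 3 models by limma (0, 1 and 1 lower at an unadjusted p under 0.05). Cldn5, a tight junction protein of brain endothelium, was at 53.8, 53.7, 0.335 and 49.8 RPKM in GRP2/MP3 and at 105, 71.7, 0.607 and 14.6 RPKM in NSC, and Egfl7, a secreted endothelial factor, was at 74.6, 46.1, 0.416 and 28.96 RPKM in GRP2/MP3. Slc2a1, the glucose transporter of the barrier endothelium, was at 37.3, 6.08, 50.5 and 4.97 RPKM. NSC of batches 1 and 2 thus held endothelial genes with pericyte gene sums of 4.28 and 15.7 RPKM. Cldn5 was called higher than in GRP3 with the block and without batch 3 (4.20). Of 9 perivascular fibroblast genes 8 were tested and 0 called without a batch term (1 was higher than in NSC and 2 lower than in GRP3 at an unadjusted p under 0.05). With the block and without batch 3, Dcn, the matrix protein decorin, was called lower than in GRP3 (-4.16). Their sum was highest in GRP3 of batch 1 (215 RPKM), and Igf2, Col3a1 and Col1a2 reached 67.0, 30.4 and 20.4 RPKM in GRP2/MP3.

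The remaining lists were those of oligodendrocyte progenitors, ependyma and airway. The 8 oligodendrocyte progenitor genes, with 0 called without a batch term and 6 lower than in GRP3 at an unadjusted p under 0.05, summed to 0.894 to 213 RPKM in GRP2/MP3 and to 701 to 2818 RPKM in GRP3 of batches 1, 2 and 4, with Olig1 at most 64.2 RPKM, Olig2 at most 29.9 RPKM and Cacng4 at most 42.5 RPKM in GRP2/MP3. The median log2 fold change of the 8 genes against GRP3 was -3.36 without a batch term, beside -0.15 over all genes tested. With the block and without batch 3, Olig1, Olig2 and Lhfpl3 were called lower than in GRP3. All 6 ependymal genes were called lower in GRP2/MP3 than in NSC without a batch term, Ccdc153 by the most (log2 fold change -8.98, adjusted p = 1.83e-06 by limma), with Dynlrb2, Fam183b, Rsph1 and Foxj1. In that comparison 308 of the 27614 genes tested were called in either direction. Of the 7 lung and airway genes 0 were called in any comparison, and outside batch 3 Scgb1a1, Chil3 and Marco were at most 0.844, 0.665 and 3.58 RPKM in GRP2/MP3, against 944, 617 and 81.9 RPKM in batch 3.

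**Figure D4:**
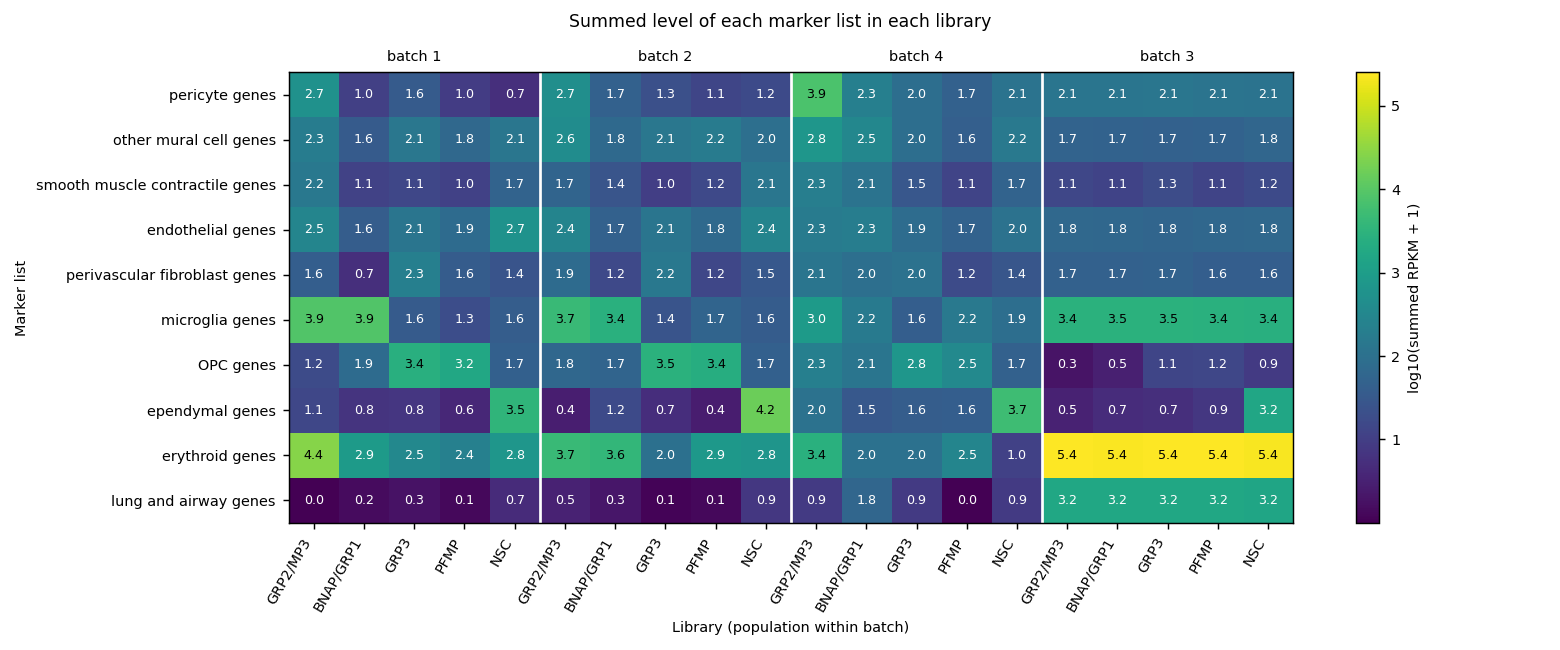
Summed RPKM of 10 marker lists in each of the 20 libraries, as log10(sum + 1), grouped by batch with batch 3 at the right. The pericyte row peaks in GRP2/MP3 of batches 1, 2 and 4 at sums of 530, 475 and 7493 RPKM, the microglia row peaks in both GRP2/MP3 and BNAP/GRP1 in batches 1 and 2, and in batch 3 the erythroid and airway rows are at 228440 and 1493 RPKM or more in every population. In batch 3 the pericyte row, at 116 to 130.4 RPKM, is nearly all Anpep.

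The 10 tested genes outside the list whose levels were most like the mean of the 10 standardized members over the 20 libraries had a Pearson r of 0.905 to 0.958. They were Itga1, the alpha 1 integrin chain that binds collagen (r = 0.958), Tmem45a, Tlr12, Foxs1, Dock6, Hspb2, Naalad2, Mcam, Tbx2, a T-box factor, and Gm13861. Foxs1 and Mcam belong to the list of other mural cell genes. Itga1 was at 2.52, 5.57, 0.312 and 10.5 RPKM in GRP2/MP3 and at 4.92 RPKM in BNAP/GRP1 of batch 4, which was the highest of the 16 other libraries. Tbx2 was higher in that library (10.6 RPKM) than in any GRP2/MP3 library (at most 5.41 RPKM). These r rest on libraries that share batches and depth and carry no p. Itga1, Tlr12, Foxs1, Hspb2, Naalad2 and Tbx2 passed the filter only through their GRP2/MP3 libraries, so their likeness to the members is not support of its own.

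The 12 genes outside the list that, like 6 members, lay in GRP2/MP3 above all 12 other libraries of batches 1, 2 and 4 are named here after their values were seen. They include Col4a1 and Col4a2, the 2 chains of the basement membrane collagen IV, at 14.51, 32.04 and 37.6 RPKM and at 6.55, 12.9 and 28.4 RPKM in GRP2/MP3 of those batches, with at most 11.2 and 5.22 RPKM elsewhere. Gng11, a G-protein gamma subunit, was at 132, 48.1 and 79.8 RPKM, Apold1, an endothelial early response gene, at 9.97, 14.9 and 42.8 RPKM, and Fam162b at 15.7, 13.4 and 6.88 RPKM. The remaining 7 were Chp2, Clec4n, Esyt1, Fcgrt, Gm23582, Gm9761 and the gene of ENSMUSG00000020486, Sept4. None of the 12 was in any of the lists used here. Gm23582 was at 0 RPKM in all 12 of those other libraries. Genes that passed the filter only through GRP2/MP3 were not taken out of this set, so these places are not support of their own.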

How the data were processed

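The deposited table holds the authors' RPKM for 45705 genes in 20 libraries, 4 of each of 5 populations, with 26 empty columns beside them. Per the study's methods, reads were processed with nf-core/rnaseq (FastQC 0.11.9, cutadapt 3.4, STAR 2.6.1 on GRCm38, Salmon 1.9.0). The gene lengths, the read total and the strand setting behind the RPKM are not given in the sources used here, so the depth is known only relative to other libraries and no counting interval is given.

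The members and all lists were chosen with earlier results of these data known. Values were taken as log2(RPKM + 1), and fold changes are on that scale, which understates those of low genes. Genes that reached 1 RPKM in 4 or more libraries were fitted in R 4.3.3 with limma 3.58.1 (trended prior), with 1 mean per population, all 20 libraries and no batch term, at an adjusted p of 0.05. After the population means were taken out, libraries of a batch correlated with a median r of 0.337, 0.262, 0.769 and 0.581 in batches 1 to 4 (lowest 0.0341) and -0.20 between batches. The labels give the batch, so it entered as a replicate block in an alternative. Also tried were fits without the trend, without the filter or with a mean of 5 RPKM or more, quantile normalization, median-of-ratios scaling, 0.1 as the pseudocount, the compared populations alone, each library or batch left out, and batches 1 and 2 alone with the block. The steps were tested on simulated data. Named genes were all members and, of each list, those called in a comparison of GRP2/MP3 (at most 5) or else the 3 with the highest mean there, with the 10 genes most like the members. Other genes called by the other models are named in part. Positions are from GENCODE vM21. Without the block, p-values measure the spread between the pooled-litter libraries of a population, estimated over all populations together. With the block, the spread between batches is taken out, and they measure what is left between libraries. Figures used Python 3.11.15 with matplotlib 3.10.9.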

Additional observations from a re-analysis of the deposited data

Results flagged for a closer look

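In 8 of 50 groups of 4 libraries (each gene in each population, on the log2 scale), 1 library stood further from the others than the 95% critical value of Dixon's test, which chance gives in about 1 group of 20. In batch 3, Notch3 in GRP2/MP3 was low at 0.0104 RPKM, and Anpep was high in PFMP at 120.2 RPKM and in NSC at 115 RPKM. In batch 4, Kcne4 and Atp13a5 were high in BNAP/GRP1 at 8.03 and 8.10 RPKM, below that library's median over all genes of 8.30 RPKM. Atp13a5 was also high in GRP3 of batch 4 at 1.91 RPKM. Higd1b was high in PFMP of batch 2 at 8.52 RPKM, and Abcc9 in PFMP of batch 1 at 0.565 RPKM.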

How the results depend on the processing

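Counts of genes called in either direction moved most. Against NSC the count was 308, and it was 851 with the replicate block, 174 with a pseudocount of 0.1, 114 with the compared populations alone, 56, 29 and 499 without batches 1, 2 and 3, 789 with the block and without batch 3, 817 with the block in batches 1 and 2 alone, and 151 to 560 with single libraries left out. Pericyte genes called higher than in NSC went from 0 to 6 with the block (0.174% of genes called higher), 4 with quantile normalization (Kcnj8, Abcc9, Kcne4 and Atp13a5), 6 without batch 3, 7 with the block and without batch 3 (0.585%), 3 with the block in batches 1 and 2 alone, and 0 to 6 with single libraries left out. A count of members without the share of all genes called higher is not read as a result about the members. Abcc9, Kcne4 and Atp13a5 passed the filter only through GRP2/MP3, so their calls are not support of their own. Against BNAP/GRP1 the genes called and the members called both went from 0 to 1 with the block and without batch 3. Against GRP3 the genes called went from 0 to 1 with the compared populations alone, 2 without batch 3, 1 without batch 4, 139 with the block and without batch 3 and 640 with the block in batches 1 and 2 alone, and the members called to 6 and 2 under the last pair. Against PFMP the genes called went from 0 to 1 without batch 4, 55 with the block and without batch 3 and 537 with the block in batches 1 and 2 alone, with 7 and 4 members. Counting all alternatives of the 41 fold changes recomputed, 798 of 870 kept their direction and side of the threshold, 53 passed it and 19 turned sign.

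The signs that turned were those of Anpep and Notch3, which were called nowhere. Anpep against BNAP/GRP1 (-0.04) became 0.31 with a pseudocount of 0.1, 0.13 with median-of-ratios scaling, 0.57 with quantile normalization and 0.089 without batch 4, and lay between -1.52 and 1.45 with single libraries left out. Against NSC, GRP3 and PFMP it ran from -0.97 to 2.12, -1.05 to 2.08 and -0.70 to 2.51 with single libraries left out. Notch3 against BNAP/GRP1 (0.19) became -0.35 without batch 1 and ran from -0.30 to 0.78 with single libraries left out. The cause was not tested. For the 3 other populations against NSC, 78 of 614 fold changes not printed here turned sign. The high median over all genes and an uncertain depth limit BNAP/GRP1 of batch 4, and batch 3 limits every comparison.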
